A study of Danio rerio with 18 samples.

Results

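The Hox cluster genes encode homeodomain transcription factors that lie in clusters on several chromosomes. Within a cluster, genes of low paralogue group number are transcribed towards the head and genes of high number towards the tail, an order called collinearity. In the trunk they are known for giving position along the body axis to neural tube, somites and lateral mesoderm. m6A is a methyl group on adenosine in mRNA, written by a complex around the methyltransferase Mettl3, and Ythdf2 is a reader protein known for speeding the decay of mRNAs that carry it.

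The Hox genes described here are all Ensembl gene IDs of the count tables whose symbol is Hox, a cluster letter A to D, a number from 1 to 13 and an optional a or b. This rule found 38 of 33737 gene IDs, and it used names alone, not measured values. The gene name table held 48 Hox IDs, and the other 10 were not analysed here. Cluster A held 5 of the 38 genes, cluster B 15, cluster C 11 and cluster D 7. Paralogue groups 1 to 3, called anterior here, held 8 genes, groups 4 to 8, called central, 13, and groups 9 to 13, called posterior, 17. Symbols are spelled as the name table gives them, and because 2 IDs share the symbol HOXB5 they are printed with their ID.

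Zebrafish trunk at 28 hours post fertilisation was sampled in 18 libraries, 9 groups of 2. MeRIP-seq, an m6A antibody pulldown (IP) of fragmented mRNA set against the unselected mRNA (input), was made from embryos labelled normal, called control, and from mettl3 morphants. RIP-seq came from embryos injected with ythdf2-Flag mRNA, with genotype labelled normal and no input of its own, and endothelial cells gave RNA-seq libraries under a control, a mettl3 morphant and a ythdf2 morphant label. A morphant is an embryo injected with a morpholino, an antisense oligomer that lowers the product of a gene without changing the gene; the strain, the morpholino sequence and dose, the number of embryos pooled and the way endothelial cells were isolated have no mention in the labels. The miCLIP libraries and the lists of regions carry positions without gene names and were not used here.

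Gene counts summed to 32800475 to 78278767 in MeRIP libraries, 5273087 to 7901401 in RIP libraries and 3565193 to 4748921 in endothelial libraries. All 38 Hox genes had counts in each MeRIP and RIP library and 33 to 36 of them in each endothelial library. METTL3 stood at 35.8 and 19.6 CPM (gene counts scaled to the same total in each library) in the control inputs, replicates 1 and 2, and at 15.7 and 48.2 CPM in the inputs labelled mettl3 morphant, so it was lower under that label in replicate 1 and higher in replicate 2. In endothelial cells METTL3 was at 20.2 and 18.8 CPM under the control label and 137 and 143 CPM under the mettl3 morphant label, and YTHDF2 at 5.69 and 9.20 CPM under the control label and 22.7 and 29.3 CPM under the ythdf2 morphant label. Neither targeted mRNA was lower in its own morphant pool, and a morpholino need not lower its target's mRNA, so groups are called by their labels. Replicate 1 of the MeRIP libraries was read at 151 bp and replicate 2 at 101 bp, per the labels' protocols. No label says that replicates came from separate clutches, so p-values measure the spread between these libraries, which may be technical.

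The trunk inputs give the level of each Hox gene in whole trunk mRNA. Transcript lengths were not to hand, so CPM values are compared between libraries for one gene and never between genes. The 38 genes together took 1170 and 1275 CPM of the control inputs and 1237 and 1332 CPM of the inputs labelled mettl3 morphant.

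For 1 member of each paralogue group, the one with the most counts, the level in trunk mRNA is given as mean CPM ± SD over the control inputs (n = 2), with no order of genes read from these values. In the anterior groups these were hoxc1a at 139 ± 7.10 CPM, HOXB2 at 11.9 ± 0.33 CPM and HOXB3 at 73.0 ± 13 CPM. In the central groups HOXD4 had 36.8 ± 5.44 CPM, HOXB5 (ENSDARG00000054030) 25.7 ± 0.504 CPM, HOXC6 20.4 ± 1.48 CPM, HOXB7 22.6 ± 0.618 CPM and HOXB8 91.3 ± 2.97 CPM. In the posterior groups HOXB9 had 158 ± 0.561 CPM, hoxb10a 31.5 ± 1.46 CPM, HOXA11 31.0 ± 2.49 CPM, HOXC12 25.8 ± 3.27 CPM and HOXC13 20.2 ± 2.77 CPM. Every paralogue group from 1 to 13 was therefore represented in trunk mRNA.

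**Figure D1:**
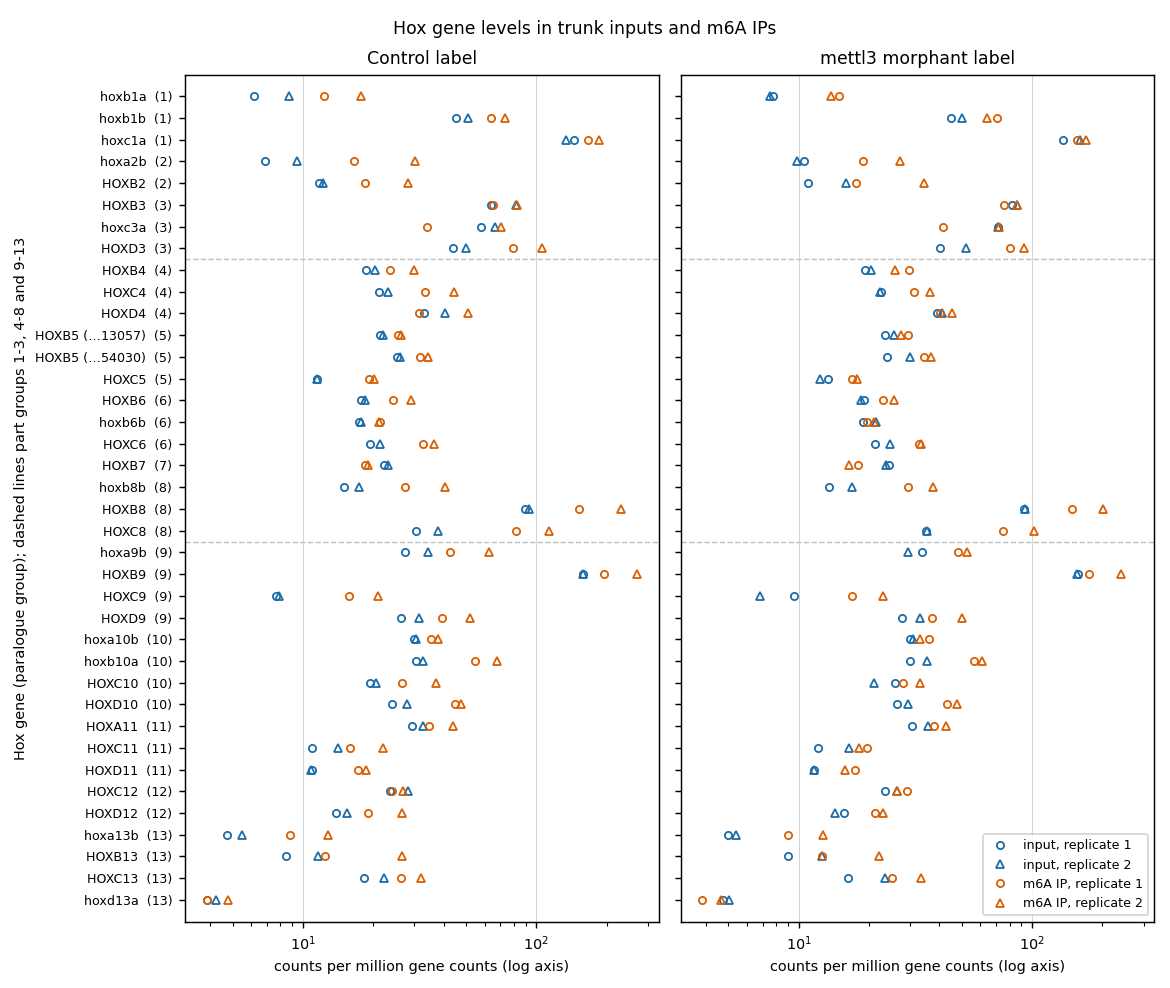
Level of each of the 38 Hox genes (rows, with the paralogue group in brackets) in CPM on a log axis, for inputs (blue) and m6A IPs (orange), replicate 1 as circles and replicate 2 as triangles, control label on the left and mettl3 morphant label on the right. Orange points lie to the right of blue points for most genes; HOXB7 is the gene with both IP points to the left in both panels.

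Hox gene levels in whole trunk mRNA were compared between the labels with the 4 input libraries. No Hox gene was called different: 0 of 38 passed, against 0% of the 22561 genes tested (edgeR quasi-likelihood test, Benjamini-Hochberg adjusted p under 0.05, n = 2 per label). At an unadjusted p under 0.05 the count was 290 of all genes and 0 of the Hox genes, and DESeq2 called 2 genes, neither a Hox gene. The median log2 difference, mettl3 morphant label over control, was 0.07 over the Hox genes and 0.01 over all genes tested.

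The highest Hox value was that of hoxa2b, known for the identity of the second pharyngeal arch and the anterior hindbrain. Its control inputs had 6.90 and 9.41 CPM and its inputs labelled mettl3 morphant 10.6 and 9.80 CPM, a log2 difference of 0.34 (SE 0.19, edgeR adjusted p = 0.9999). The groups did not overlap, but the second input labelled mettl3 morphant lay close to the second control input.

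For hoxd13a the log2 difference was 0.27 (SE 0.19) and for HOXC10, a posterior gene of the hindlimb and lumbar level in mouse, 0.24 (SE 0.21). At the other end stood hoxb8b at −0.10 (SE 0.12), HOXC12 at −0.05 (SE 0.12) and HOXC13 at −0.04 (SE 0.13), and HOXB2, a gene of hindbrain segments in vertebrates, had 0.15 (SE 0.15). Each of these 6 genes had an edgeR adjusted p = 0.9999. Within replicate numbers 14 Hox genes were higher under the mettl3 morphant label in both, 3 were lower in both and 21 pointed opposite ways. The shares of all genes that did so are not given here.

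The m6A IP asked which transcripts the antibody enriched over their input. In the control libraries 17 of 38 Hox genes were higher in the IP and 0 were lower, where 13.9% of the 23163 genes tested were higher, 14.8% lower and 28.6% either (edgeR, adjusted p under 0.05, n = 2 per group). The median log2 IP over input was 0.53 over the Hox genes and −0.03 over all genes tested. The higher calls came from every class, 4 of the 8 anterior, 6 of the 13 central and 7 of the 17 posterior genes, and from every cluster, 3 of 5 in A, 5 of 15 in B, 5 of 11 in C and 4 of 7 in D.

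HOXC8, which is known in mouse for the identity of thoracic vertebrae and motor neurons, had the highest value. Its control inputs stood at 30.5 and 37.7 CPM and its control IPs at 81.9 and 113 CPM, so that both IPs lay above both inputs. That was a log2 difference of 1.40 (SE 0.15, edgeR adjusted p = 0.00152), or 2.63-fold.

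For hoxa2b the inputs were 6.90 and 9.41 CPM and the IPs 16.6 and 30.1 CPM, without overlap, at log2 1.39 (SE 0.23, edgeR adjusted p = 0.00398). HOXC9, another thoracic gene in mouse, had inputs of 7.69 and 7.90 CPM and IPs of 15.8 and 20.9 CPM. Its IPs were higher by log2 1.11 (SE 0.24, edgeR adjusted p = 0.00990). These 3 were the Hox genes called at 2-fold or more in the control libraries, and the share of all genes so called is not given here.

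Among the other called genes with the highest values were hoxa13b, a gene of fin and tail, at log2 0.96, hoxb8b at 0.94 and HOXB8 at 0.94. All 3 members of paralogue group 8 (hoxb8b, HOXB8 and HOXC8) and both of group 2 (hoxa2b and HOXB2) were therefore called. For HOXB2 the inputs were 11.7 and 12.2 CPM and the IPs 18.4 and 28.2 CPM, a log2 difference of 0.83 (SE 0.24, edgeR adjusted p = 0.0330). The called genes with the lowest values were HOXD9 at 0.55, HOXD11 at 0.61, HOXC6 at 0.65, hoxa9b at 0.65, HOXC5 at 0.67 and HOXC4 at 0.69.

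The Hox genes were not all alike in the IP. HOXB7 had control inputs of 22.2 and 23.1 CPM and control IPs of 18.4 and 18.9 CPM, both IPs below both inputs, at log2 −0.39 (SE 0.18, edgeR adjusted p = 0.146). The value of hoxc3a was also −0.39 (SE 0.27, edgeR adjusted p = 0.2997), but it came from 1 replicate number, with IP over input at −0.80 in the first and 0.01 in the second. HOXB7 and hoxc3a were chosen after their values were seen. In RefSeq annotation of GRCz12tu the span of hoxc3a overlaps those of hoxc4a, hoxc5a, hoxc6a, hoxc8a and hoxc9a. That of hoxb3a overlaps those of hoxb4a, hoxb5a and hoxb6a. The span of hoxb1b overlaps those of hoxb5b and hoxb6b, and that of hoxd3a overlaps that of hoxd4a. The counts hold ambiguous reads on a line of their own, given to no gene, at 2.005% to 3.236% in MeRIP libraries. The labels name no annotation release, so which of these genes overlapped in the counting is not known. The share over whole libraries does not say how many reads these genes lost, so their counts are uncertain.

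The replicate number, which goes with read length, was shared by IP and input. IP lay above input in both numbers for 32 of 38 Hox genes under the control label. The share of all genes that did so is not given here. With the number as a block 25 Hox genes were higher and 1, HOXB7, was lower (log2 −0.39, edgeR adjusted p = 0.0224). Of 23163 genes the block called 4594 higher and 4930 lower. Without control input 1 or 2 fewer Hox genes were called higher. Their median log2 was then 0.55 and 0.52, beside 0.01 and −0.01 over all genes. Scaling by total gene counts gave 10 higher and 0 lower; it moved the median of all genes from −0.03 to 0.09 and the calls over all genes from 3209 higher and 3424 lower to 1685 and 977. Of the 15 fits run for the control label 8 left out 1 library. In each of the others HOXB8, HOXC8, HOXC9, HOXD10, HOXD3, hoxa13b, hoxa2b, hoxb10a, hoxb1a and hoxb8b were called. How many of all genes were called in each is not given here.

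**Figure D2:**
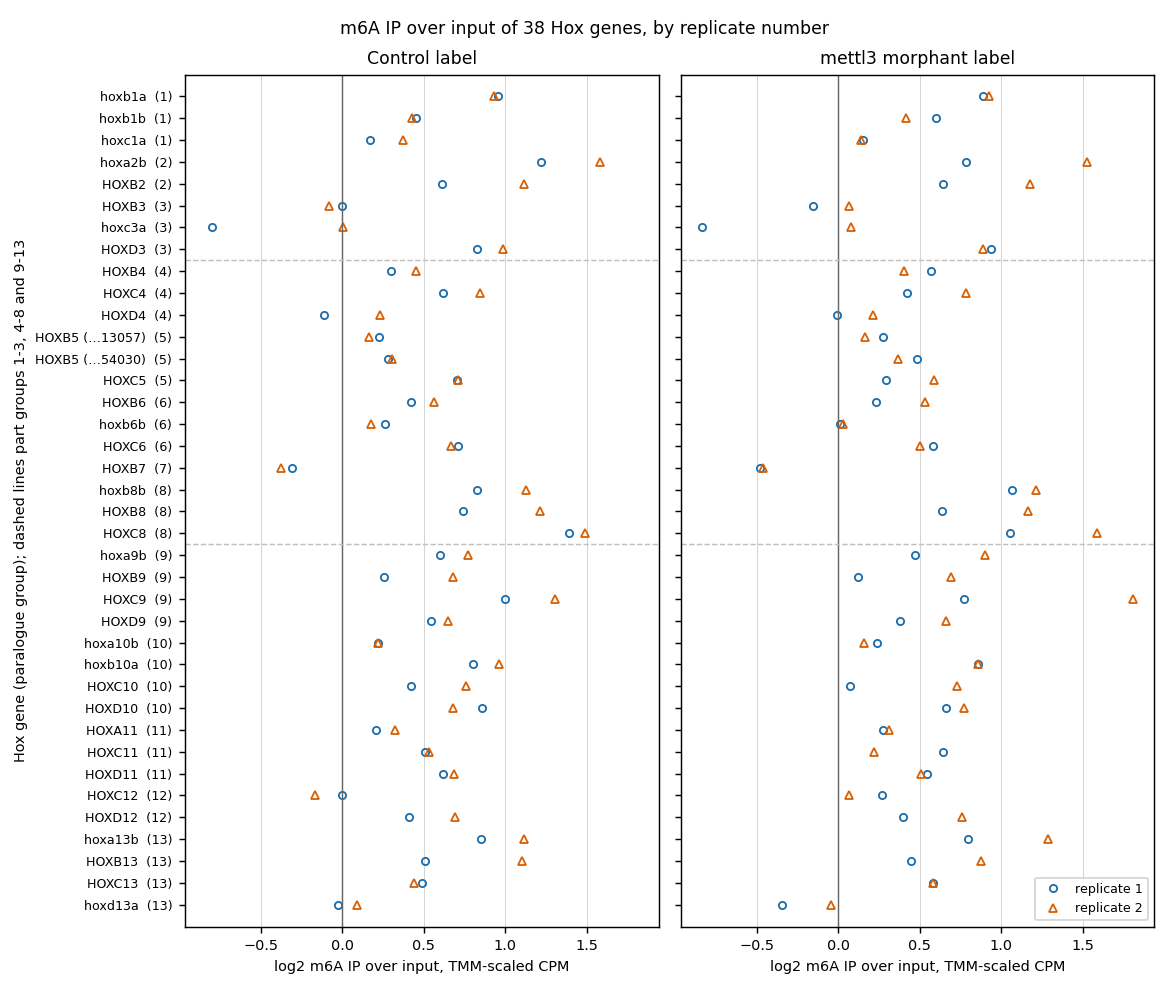
Log2 m6A IP over input of TMM-scaled CPM for each of the 38 Hox genes (rows, paralogue group in brackets), replicate 1 as blue circles and replicate 2 as orange triangles, control label on the left and mettl3 morphant label on the right. Under the control label both points lie right of 0 for 32 genes and under the mettl3 morphant label for 33, with HOXC8, HOXC9 and hoxa2b far to the right and HOXB7 left of 0 in both. The share of all genes with both points right of 0 is not given.

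Under the mettl3 morphant label 16 Hox genes were higher in the IP and 0 lower, where 13.3% of all genes tested were higher, 13.5% lower and 26.8% either (edgeR, n = 2 per group). The median log2 value was 0.44 over the Hox genes and −0.02 over all genes. HOXC8 again had the highest value, with inputs of 35.1 and 35.3 CPM and IPs of 75.3 and 102 CPM, at log2 1.24 (SE 0.15, edgeR adjusted p = 0.00206). Both IPs lay above both inputs.

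HOXC9 followed at log2 1.18, hoxa2b at 1.08 and hoxb8b at 1.07. With HOXC8 these 4 were the Hox genes called at 2-fold or more, and the share of all genes so called is not given here. Next came hoxa13b at 0.98 and HOXB2 at 0.88 (SE 0.24, edgeR adjusted p = 0.0284). The called genes with the lowest values were HOXD9 at 0.45, HOXC6 at 0.47, HOXC13 at 0.50, HOXC4 at 0.52, hoxa9b at 0.59 and HOXD10 at 0.64.

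HOXB7 stood at log2 −0.55 (SE 0.18, edgeR adjusted p = 0.0545), with inputs of 24.3 and 23.7 CPM and IPs of 17.96 and 16.4 CPM. Both IPs were below both inputs, and with the replicate block HOXB7 was called lower (log2 −0.55, edgeR adjusted p = 0.00682). The block gave 22 higher Hox genes and 1 lower, and 4469 higher and 4572 lower of 23163 genes. Fewer Hox genes were called higher without the second input labelled mettl3 morphant, at a median log2 of 0.38 beside 0.0005 over all genes. Scaling by total gene counts gave 8 higher Hox genes and 1150 higher genes in all. HOXB7 was also called lower without the first IP labelled mettl3 morphant (log2 −0.72, edgeR adjusted p = 0.0446) and by DESeq2 (log2 −0.53, adjusted p = 0.0471); over the 15 fits its adjusted p ranged from 0.00682 to 0.274.

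Of the 38 Hox genes 15 were called higher under both labels, 2 under the control label (HOXC5 and HOXD11), 1 under the mettl3 morphant label (HOXC13) and 20 under neither. No such split over all genes is given here. The change of enrichment between labels was tested itself, as an interaction. No Hox gene was called: 0 of 38, against 0% of 23163 genes (edgeR, adjusted p under 0.05), with 72 of all genes and 0 Hox genes at an unadjusted p under 0.05 and 1 gene of the whole set, not a Hox gene, by DESeq2.

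The median change of IP over input, mettl3 morphant label minus control, was −0.06 over the Hox genes and 0.01 over all genes. The lowest values were those of HOXC5 at −0.31 (SE 0.26), hoxa2b at −0.31 (SE 0.32) and hoxd13a at −0.26 (SE 0.27). The highest were HOXC12 at 0.22 (SE 0.22), hoxb8b at 0.12 (SE 0.20) and HOXB5 (ENSDARG00000054030) at 0.10 (SE 0.20), and HOXB2 had 0.05 (SE 0.34). Each had an edgeR adjusted p = 1. The SE of these values was near or above their size, so changes of that size could not be told from 0 with n = 2 per group, and METTL3 mRNA itself pointed opposite ways in the replicate numbers.

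The ythdf2-Flag RIP was set against the control inputs to ask which transcripts were over-represented with the tagged reader protein. The RIP libraries held 219.5 and 333.8 CPM of Hox counts, against 1170 and 1275 CPM in the control inputs. CPM fell over genes at large. With scaling by total gene counts the median log2 RIP over input was −2.30 over the Hox genes and −2.11 over all genes. The CPM values of single genes in RIP below carry this shift. After TMM scaling 2 Hox genes were lower in RIP, HOXC5 and hoxd13a, and 0 were higher, where 6.31% of the 21005 genes tested were higher and 5.67% lower (edgeR, n = 2 per group). The median log2 RIP over input was −0.39 over the Hox genes and −0.19 over all genes tested. The reference was made in other embryos by another protocol, and the difference between embryos and the effect of the RIP cannot be told apart.

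HOXC5, of the central group, had 11.5 and 11.5 CPM in the control inputs and 0.76 and 0.95 CPM in the RIP libraries, from 6 and 5 counts. This was the lowest central value, at log2 −1.85 (SE 0.43, edgeR adjusted p = 0.0415). For hoxd13a the inputs were 3.88 and 4.22 CPM and each RIP library held 1 count. It passed the filter for expressed genes only through the control inputs, where it was high, so its call is not read as support. Its fitted value was log2 −2.80 (SE 0.69, edgeR adjusted p = 0.0454), and the ratio of summed counts was log2 −2.98 with an exact binomial 95% interval from −6.03 to −1.12, which covers counting error only.

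At the upper end hoxa2b, chosen after its values were seen, had 6.90 and 9.41 CPM in the inputs and 3.80 and 15.6 CPM in the RIP libraries. After scaling both RIP libraries lay above the mean of the inputs, by log2 0.77 in the first and 2.53 in the second, for a fitted value of 2.12 (SE 0.63, edgeR adjusted p = 0.0641). It was called higher by DESeq2 (log2 2.20, adjusted p = 0.0238) and by edgeR with no filter (log2 1.89, adjusted p = 0.0124), but not with scaling by total gene counts (log2 0.22, edgeR adjusted p = 0.7095) or against the control IPs (log2 0.83, edgeR adjusted p = 0.4081). Without the second RIP library it was 0.83 (edgeR adjusted p = 0.0443). Without control input 1 or 2 the edgeR adjusted p was 0.4028 and 0.3645, and over all the fits run it ranged from 1.899e-05 to 0.7095. HOXB2 had 2.28 and 11.4 CPM in RIP, log2 −0.53 in the first and 1.51 in the second against the mean of the inputs, and a fitted 1.04 (SE 0.65, edgeR adjusted p = 0.282). The RIP libraries thus did not point the same way for HOXB2.

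HOXB7, also chosen after its values were seen, had 2.28 and 1.52 CPM in RIP against 22.2 and 23.1 CPM in the inputs, at log2 −1.62 (SE 0.44, edgeR adjusted p = 0.0549). It was the third gene called lower when edgeR's dispersions were estimated without the robust option (adjusted p = 0.0483), which gave 3 lower Hox genes. Over all the fits run its adjusted p ranged from 3.582e-06 with scaling by total gene counts to 0.5563 without control input 1, and it was 0.1436 against the control IPs. Both RIP libraries lay below the mean of the inputs for 28 Hox genes and above it for 3, which were hoxa2b, HOXB3 and HOXB8. No such count over all genes is given here. Their fitted median was itself below 0, at −0.19, so these counts are not read as particular to Hox genes.

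The RIP calls rested on the libraries and the scaling used. Scaling by total gene counts gave 34 lower Hox genes and moved the median of all genes from −0.19 to −2.11, with 382 genes higher and 14288 lower in place of 1325 and 1190. Without either control input 0 Hox genes were called lower. Calls also changed without the first or the second RIP library. The median log2 value was then −0.40 and −0.53 over the Hox genes, beside −0.57 and −0.23 over all genes. Reads that the authors' counting assigned to no gene feature made up 42.9% to 43.8% in RIP and 9.07% to 13.6% in MeRIP libraries, and their part in these values was not tested.

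**Figure D3:**
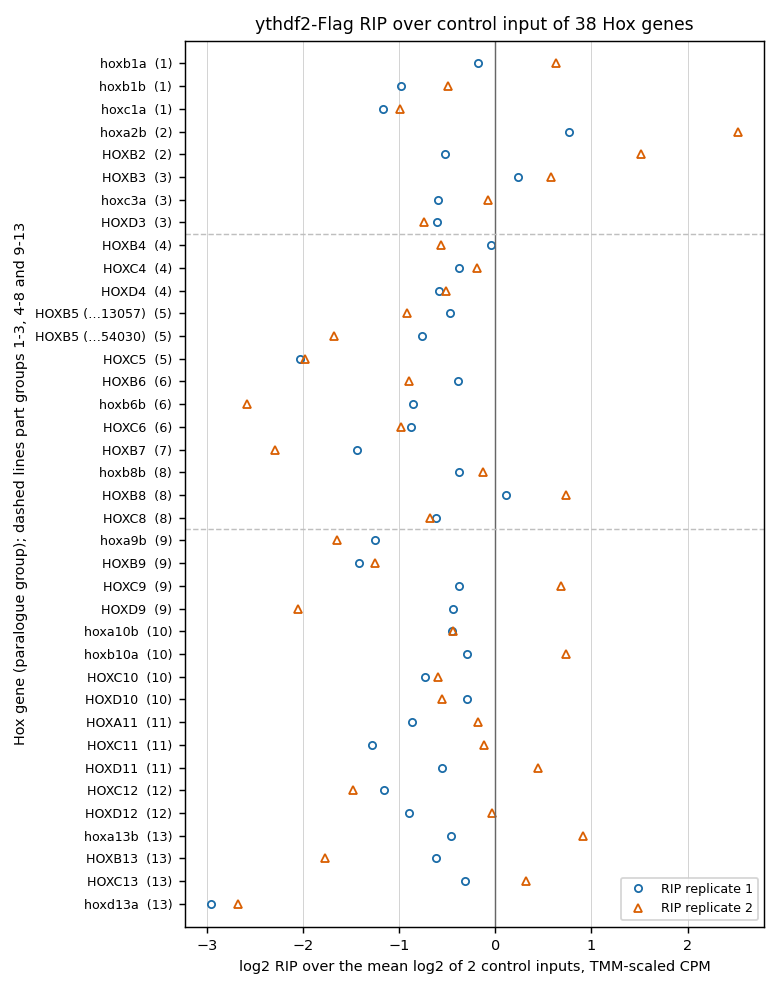
Log2 RIP over the mean log2 value of the 2 control inputs, TMM-scaled CPM, for each of the 38 Hox genes (rows, paralogue group in brackets), RIP replicate 1 as blue circles and replicate 2 as orange triangles. HOXC5 and hoxd13a lie far left of 0 in both libraries and hoxa2b right of 0 in both, while HOXB2 lies on opposite sides.

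In endothelial cells the libraries of a group differed by about sampling noise, with a chi-square per degree of freedom of 1.04 in the control, 1.01 in the mettl3 morphant and 1.04 in the ythdf2 morphant group, against 59.4 to 338.5 in the other groups. They were summed and counted as 1 sample per group, so folds below carry exact binomial 95% intervals, which cover counting error only, and no test. The endothelial markers that matched a symbol, 6 of 14 listed, summed to 60.1 to 79.1 CPM in the trunk inputs, 281 and 295 CPM in the control endothelial libraries, 910 and 945 CPM under the mettl3 morphant label and 792 and 793 CPM under the ythdf2 morphant label. None of the 6 was at 0 in an endothelial library. flt1, a VEGF receptor, was at 139 and 146 CPM in the control endothelial libraries against 6.03 and 6.92 CPM in the control inputs, while cdh5, the vascular cadherin, was at 22.9 and 28.5 CPM against 22.4 and 29.4 CPM, and at 3.93 and 2.51 CPM under the ythdf2 morphant label. Skeletal muscle markers, 6 of 12 listed, summed to 16330 and 16100 CPM in the control endothelial libraries, 1034 and 1095 CPM under the mettl3 morphant label and 4207 and 4150 CPM under the ythdf2 morphant label, against 7589 to 9780 CPM in the inputs. MYOD1 was at 0 under the mettl3 morphant label.

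The other marker lists also differed between the endothelial pools. Neural tube markers (10 of 12 matched) summed to 1051 and 1063 CPM in the control libraries, 1209 to 1221 CPM under the mettl3 morphant label and 609 to 621 CPM under the ythdf2 morphant label, and neural crest and pigment markers (5 of 8) to 207 to 211, 67.8 to 72.9 and 18.7 to 19.4 CPM. Notochord markers (3 of 7) summed in the same order to 95.02 to 102, 254 to 260 and 216 to 222 CPM, and epidermis markers (8 of 8) to 4726 to 4749, 6965 to 6975 and 11860 to 11950 CPM. Red blood cell markers (5 of 7) summed to 184 to 185, 45.3 to 56.1 and 14.8 to 22.7 CPM, pronephros and lateral plate markers (4 of 6) to 36.4 to 39.8, 13.4 to 18.3 and 35.1 to 44.9 CPM, and head markers (5 of 13) to 0.211 to 1.07, 7.84 to 9.40 and 0 CPM. These sums follow the most abundant markers of a list. Under the mettl3 morphant label 0 of 8 epidermis markers were past 2-fold higher and 3 lower, and 1 of 10 neural tube markers was higher and 3 lower. Of all genes 19.3% were higher and 31% lower under that label. The head sum under it was rx1 alone. Under the ythdf2 morphant label 4 of 8 epidermis markers were higher and 1 lower, where 21.1% of all genes were higher and 32% lower. Each pool thus held markers of other tissues, at sums that differed between pools. The part of those tissues in the Hox values was not tested.

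Hox genes in the control endothelial pool were set against both control trunk inputs. The pool also held markers of other tissues, so the ratios describe the pool and not endothelial cells alone. Of the 38 genes 8 were past 2-fold higher against both inputs and 8 past 2-fold lower, where 12.9% of the 21686 genes with 20 or more counts were higher, 40.6% lower and 53.5% either. Higher were hoxb1a, hoxb1b, hoxa2b, HOXB2, HOXB3, hoxc3a, HOXC6 and hoxa9b. Lower were hoxc1a, HOXB9, HOXC11, HOXC12, hoxa13b, HOXB13, HOXC13 and hoxd13a. By class 6 of 8 anterior genes were higher and 1 lower, and 1 of 13 central genes was higher and 0 lower. Of 17 posterior genes 1 was higher and 7 lower, a lower share close to the 40.6% of all genes. Among the lower ones HOXB13, hoxd13a and hoxa13b reached 20 counts only through the trunk inputs, where they were high.

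The values ran along the paralogue series. The median log2 ratio was 1.56 and 1.47 over the anterior genes against control inputs 1 and 2, 0.50 and 0.69 over the central genes and −0.14 and −0.07 over the posterior genes, beside −0.61 over all genes. Across the 38 genes Spearman's rho of group number with the log2 ratio was −0.65 against either input. It is a description without a test, since the genes share libraries and clusters. It includes hoxa13b, HOXB13 and hoxd13a, measured only through the inputs. HOXB13 and hoxd13a, at 0 counts in the pool, were entered at 3 counts. Anterior genes summed to 718 CPM in the pool and to 380 and 414 CPM in the inputs, central genes to 496 CPM against 342 and 373 CPM, and posterior genes to 368 CPM against 448 and 488 CPM. Endothelial cells and whole trunk came from different protocols, and in bulk samples fewer cells of a type and less RNA per cell cannot be told apart.

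HOXB3 had the most counts over the pools, at 209 and 212 CPM in the control endothelial libraries against 63.8 and 82.2 CPM in the control inputs. It was higher by log2 1.70 (interval 1.62 to 1.78) against input 1 and by 1.57 against input 2. hoxc3a had 156 and 156 CPM against 57.7 and 66.2 CPM, log2 1.41 (1.32 to 1.502) and 1.45. The endothelial libraries lay above both inputs for both genes.

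hoxb1b, an early gene of hindbrain patterning, had 122 and 124 CPM against 45.4 and 50.9 CPM, log2 1.42 (1.32 to 1.52) and 1.48. HOXB2 had 47.4 and 48.1 CPM against 11.7 and 12.2 CPM, log2 2.01 (1.83 to 2.18) and 2.18, and hoxa2b reached 2.30 (2.09 to 2.52) and 2.08. Group 2 thus held the highest ratios of the series. hoxa9b, at 66.1 and 73.0 CPM against 27.4 and 34.3 CPM, was the posterior gene past 2-fold higher, at log2 1.32 (1.19 to 1.46) and 1.23.

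Other members with many counts had smaller ratios. HOXD3 had 77.3 and 69.5 CPM against 43.8 and 50.0 CPM, log2 0.73 (0.60 to 0.85) and 0.76. HOXB8 had 117 and 115 CPM against 89.2 and 93.4 CPM, log2 0.36 (0.27 to 0.46) and 0.53. Both stayed within 2-fold.

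The genes with the lowest ratios belonged to the last 2 paralogue groups. HOXB13, a gene of the tail end, had 0 counts in the pool, a floor of 3 counts being 0.318 CPM, and 8.49 and 11.6 CPM in the inputs. It was at least 27.0- and 31.4-fold lower against that floor alone; the exact 95% intervals, which cover counting error on both sides, ended at log2 −4.45 and −4.67. The mean log2 bound of −4.87 over both inputs came to −3.91 without the first control endothelial library and −3.93 without the second. hoxd13a also had 0 counts, HOXC12 22, hoxa13b 8 and HOXC13 29. The mean log2 bound of hoxd13a, −3.57, came to −2.62 and −2.63 without the first or the second control endothelial library. Without the first one HOXC12 went from −3.37 to −4.28 and hoxa13b from −2.49 to −3.54. HOXD12, of the same groups, had 128 counts and a log2 ratio of −0.05 and 0.02, with an interval that includes 0. Within group 1, hoxc1a went against the other members, at 51.6 and 53.3 CPM against 144 and 134 CPM, log2 −1.48 and −1.15. Tail bud markers (5 of 8) summed to 6.95 and 9.42 CPM in the control endothelial libraries and 10.47 and 14.45 CPM in the control inputs. In those endothelial libraries her7 was at 0, but its 0.297 and 0.265 CPM in the control inputs lay below the floor of 0.318 CPM. msgn1 went the other way, at 5.05 and 6.85 CPM against 3.55 and 5.76 CPM in the control inputs. The part of tail tissue in the Hox ratios was not tested.

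**Figure D4:**
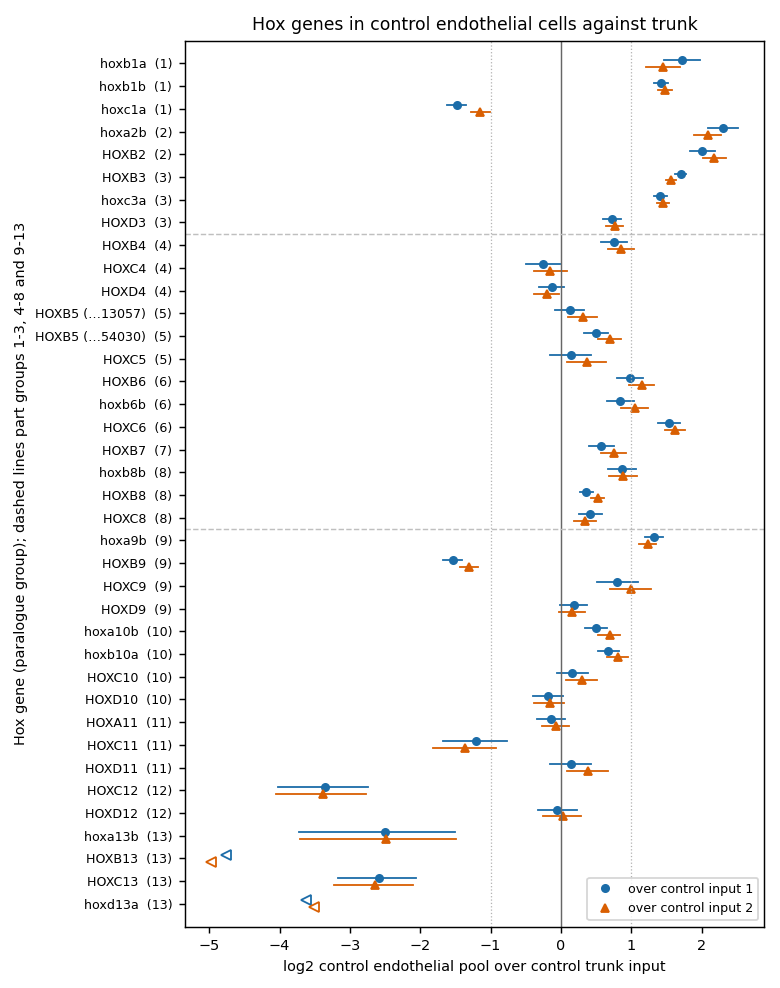
Log2 ratio of the control endothelial pool over each control trunk input (blue circles, input 1; orange triangles, input 2) for each of the 38 Hox genes (rows, paralogue group in brackets), with exact binomial 95% intervals as bars, 2-fold as dotted lines and open arrowheads where the pool held 0 counts and the ratio is a bound. Of the 8 anterior genes 6 lie past 2-fold to the right and 7 of the 17 posterior genes past 2-fold to the left. HOXB13, hoxd13a and hoxa13b were measured only through their counts in the inputs. Of all genes measured 12.9% were past 2-fold higher and 40.6% lower.

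The endothelial pool labelled mettl3 morphant was set against the control pool. Of the 36 Hox genes with 20 or more counts in a pool 6 were past 2-fold higher and 4 lower, where 19.3% of the 13933 genes were higher, 31% lower and 50.3% either. The share of Hox genes was not above that of all genes in either direction. The median log2 value was 0.10 over the Hox genes and −0.15 over all genes. hoxa13b and HOXB13 did not reach the count minimum.

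Of the 6 higher genes 5 were posterior, from a class of 17 of which hoxa13b and HOXB13 were not measured. Of all genes 19.3% were higher. The 5 include hoxd13a, measured only through the pool in which it was high, so this count is not read as a result about the class. HOXD10, a gene of limb and lumbar level in mouse, had 19.8 and 23.3 CPM in the control endothelial libraries and 82.1 and 79.2 CPM under the mettl3 morphant label, log2 1.64 (interval 1.40 to 1.87). HOXA11 had 30.1 and 23.8 CPM against 83.1 and 86.0 CPM, log2 1.38 (1.17 to 1.59). hoxa9b had 66.1 and 73.0 CPM against 202 and 201 CPM, log2 1.27 (1.13 to 1.40).

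hoxd13a had 0 counts in the control pool and 62 in the other, at least 20.5-fold higher against the floor alone. Its exact 95% interval started at log2 4.01, and the log2 bound of 4.36 came to 3.39 without the first control endothelial library and 3.41 without the second. It reached the minimum of 20 counts only through the pool in which it was high. HOXC13, at log2 1.28 (0.64 to 1.96), and the central hoxb6b, at 1.16 (0.96 to 1.36), made up the rest. HOXD3 had 144 and 156 CPM under the label and log2 0.76 (0.62 to 0.90), HOXB8 log2 0.48 (0.36 to 0.59) and hoxb1b 0.12 (0.01 to 0.24), all within 2-fold.

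The 4 lower genes were hoxb1a, hoxc3a, HOXC4 and HOXC12. hoxc3a had 156 and 156 CPM in the control libraries and 49.0 and 55.1 CPM under the label, log2 −1.85 (−2.01 to −1.69). hoxb1a had 23.2 and 17.98 CPM against 7.62 and 8.35 CPM, log2 −1.64 (−2.07 to −1.22). HOXC12, with 22 counts in the control pool and 0 in the other, was at least 7.40-fold lower against the floor alone, and its exact 95% interval ended at log2 −2.47. The log2 bound of −2.89 came to −1.94 without the first and −1.93 without the second mettl3 morphant endothelial library. HOXC12 reached 20 counts only through the control pool, and with either control library left out it was not among the genes measured, so its place among the lower genes under either morphant label rests on both control libraries together. HOXB3 (log2 −0.66, −0.76 to −0.56) and HOXB2 (log2 −0.97, −1.20 to −0.74) had values below 0 and stayed within 2-fold.

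Summed over genes, the anterior class had 718 CPM in the control pool and 645 CPM under the mettl3 morphant label. The central class had 496 and 719 CPM and the posterior class 368 and 706 CPM. The sums carry no TMM scaling and follow the genes with most counts. With TMM scaling the median log2 value was −0.80 over anterior, 0.39 over central and 0.24 over posterior genes. The lower count was 7 without the second library of that label. Scaling by total counts gave 7 higher and 3 lower and moved the median of all genes from −0.15 to 0.12. Beside these values the muscle markers were 6 of 6 past 2-fold lower and the red blood cell markers 5 of 5, where 31% of all genes were. The part of cell makeup in the Hox values was not tested.

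The ythdf2 morphant pool was set against the same control pool, so the comparisons share it. Of 36 Hox genes 4 were past 2-fold higher and 8 lower, where 21.1% of genes were higher, 32% lower and 53.1% either. With TMM scaling the share of Hox genes was again not above that of all genes in either direction. With scaling by total counts 10 of 36 Hox genes and 3484 of 13933 genes were higher, a Hox share slightly above. The median log2 value was −0.03 over the Hox genes and −0.19 over all genes.

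The 4 higher genes were all posterior, from a class of 17 of which hoxa13b and HOXB13 were not measured. HOXD10 had 19.8 and 23.3 CPM in the control libraries and 161 and 172 CPM under the ythdf2 morphant label, log2 2.75 (interval 2.54 to 2.97). HOXA11 had log2 1.67 (1.46 to 1.88), HOXC9 1.5 (1.199 to 1.81) and HOXD9 1.21 (1.001 to 1.42). Among the members with most counts hoxa9b had 151 and 164 CPM, log2 0.98 (0.84 to 1.12), just within 2-fold, and HOXB8 0.46 (0.34 to 0.58).

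Of the 8 lower genes 2 were anterior (hoxb1a and HOXB2), 1 central (HOXC5) and 5 posterior (hoxa10b, hoxb10a, HOXC12, HOXD12 and HOXC13). Posterior genes were thus 4 higher and 5 lower, shares near the 21.1% and 32% of all genes. HOXB2 had 47.4 and 48.1 CPM in the control libraries and 8.70 and 10.6 CPM under the label, log2 −2.50 (−2.89 to −2.14). HOXD12 had 128 counts in the control pool and 8 in the other, log2 −3.80 (−5.04 to −2.78). hoxa10b had 42.3 and 43.0 CPM against 18.5 and 17.9 CPM, log2 −1.43 (−1.72 to −1.14).

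hoxb10a had log2 −1.02 (−1.27 to −0.78), close to the 2-fold line, hoxb1a −1.49 (−1.94 to −1.07) and HOXC5 −1.10 (−1.61 to −0.61). HOXC12 and HOXC13 had 0 counts and were at least 6.38- and 8.41-fold lower against the floor alone, with exact 95% intervals that ended at log2 −2.25 and −2.68. The log2 bound of HOXC12, −2.67, came to −1.74 and −1.73 without the first or the second ythdf2 morphant endothelial library, and that of HOXC13, −3.07, to −2.13 and −2.12. HOXC13 reached 20 counts only through the control and mettl3 morphant pools, where it was higher. hoxd13a was at 0 counts in both pools and has no fold. It is among the 36 genes only through its counts under the mettl3 morphant label. HOXB3 at −0.11, hoxc3a at −0.08, hoxb1b at −0.62 and HOXD3 at −0.50 were within 2-fold.

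Both morphant pools were set against the same control pool, so no overlap of the lists is drawn. HOXD10 had log2 1.64 under the mettl3 morphant label and 2.75 under the ythdf2 morphant label, HOXA11 1.38 and 1.67, and hoxb1a −1.64 and −1.49. HOXC13 had 1.28 under the mettl3 morphant label and 0 counts under the other. Posterior genes summed to 764 CPM under the ythdf2 morphant label and 368 CPM in the control pool. Anterior genes summed to 660 and 718 CPM, and central genes to 684 and 496 CPM. The sums carry no TMM scaling and follow the genes with most counts. With TMM scaling the median log2 value was 0.83 over posterior, −0.49 over anterior and −0.03 over central genes. The 8 lower genes were 5 without the second control library, and scaling by total counts gave 10 higher and 6 lower in place of 4 and 8 and moved the median of all genes from −0.19 to 0.01. Muscle markers were 4 of 6 past 2-fold lower here, and the endothelial markers 4 of 6 higher and 2 lower. Of all genes 21.1% were higher and 32% lower.

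**Figure D5:**
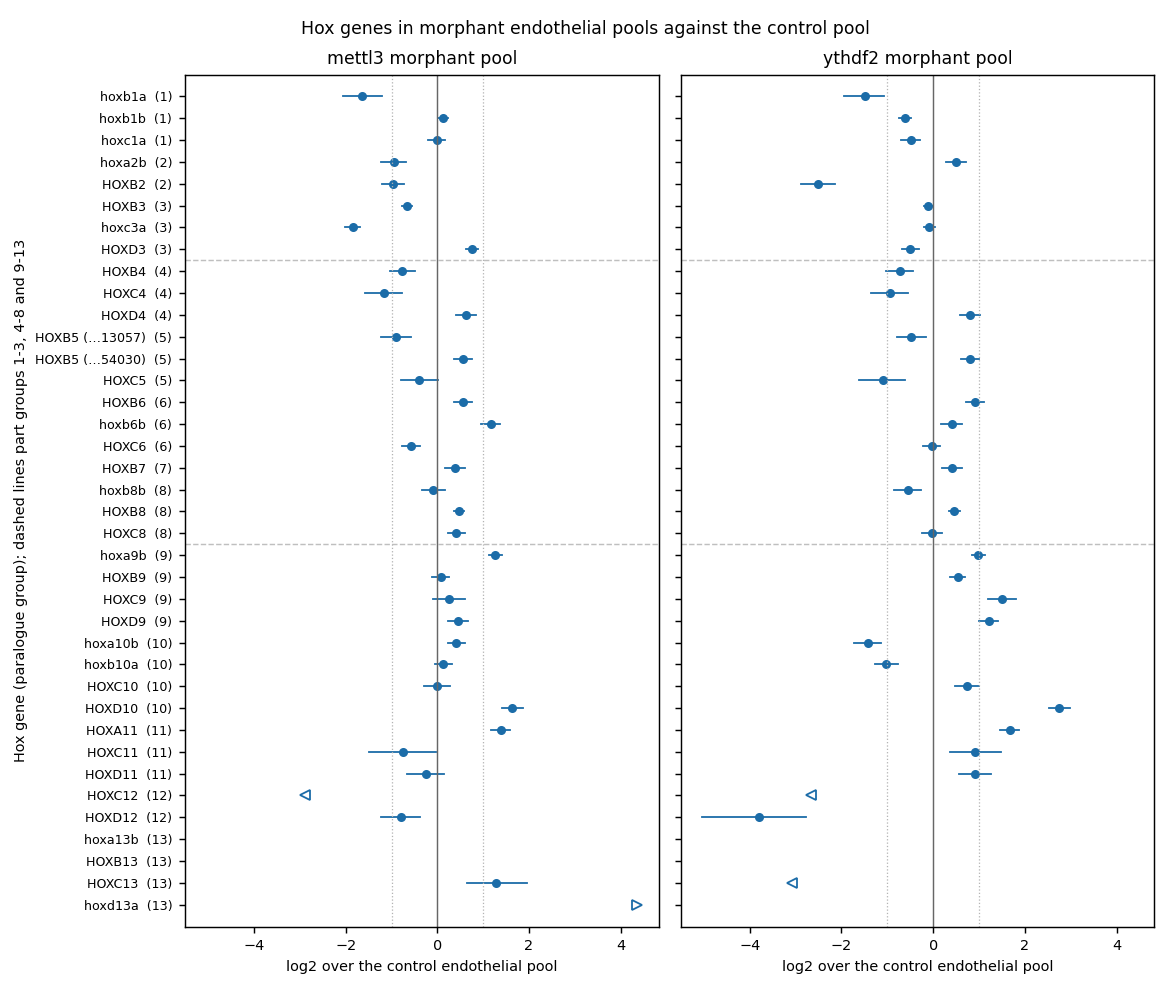
Log2 ratio of the endothelial pool labelled mettl3 morphant (left) and ythdf2 morphant (right) over the control endothelial pool for each Hox gene with 20 or more counts in a pool (rows, paralogue group in brackets), with exact binomial 95% intervals as bars, dotted lines at 2-fold and open arrowheads for bounds where 1 pool held 0 counts. Both panels share the control pool. HOXD10 lies at 1.64 on the left and 2.75 on the right, and hoxb1a at −1.64 and −1.49.

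Genes known to work with or upstream of Hox proteins were described by counts from lists. Of the TALE cofactors, homeodomain partners of Hox proteins, 7 of 14 listed matched a symbol. In the control IP 2 were higher (meis1a at log2 0.40 and meis2b at 0.72) and 1 was lower (pbx2 at −1.16), and in RIP 1 was higher (PKNOX2 at 2.59, edgeR adjusted p = 0.0419). Under the ythdf2 morphant label 6 of 6 measured cofactors were past 2-fold lower in endothelial cells, and under the mettl3 morphant label 3 of 6, where 32% and 31% of all genes measured were.

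Upstream axial regulators, which include retinoic acid receptors and the caudal factor cdx4, matched 8 of 16. In the control IP 3 were higher, cdx4 at log2 0.82, raraa at 0.73 and rarab at 0.64, and 0 lower. Chromatin regulators matched 8 of 15, with 2 higher in the control IP, cbx2 at 0.76 and kdm6bb at 0.46, and 0 lower. Other homeobox genes of the clusters and the ParaHox set, close relatives of Hox genes, matched 10 of 11, with 4 higher in the control IP and 0 lower, among them MNX1 at 1.08 and GBX2 at 1.03. Their median was 0.68, beside 0.53 for the Hox genes and −0.03 for all genes. Of all genes tested 13.9% were higher in the control IP and 14.8% lower. In endothelial cells under the mettl3 morphant label 6 of 8 axial regulators were past 2-fold lower and 1 higher. Chromatin regulators were 0 of 8 lower and 1 higher, and the other homeobox genes 4 of 8 lower and 1 higher. Under the ythdf2 morphant label these counts were 3 and 3, 2 and 0, and 6 and 1. Of all genes measured in endothelial cells 31% were lower and 19.3% higher under the mettl3 morphant label. Under the ythdf2 morphant label the shares were 32% and 21.1%.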

How the data were processed

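The authors deposited counts of reads per Ensembl gene ID for 16 libraries, and TopHat2 2.0.9 and HTSeq 0.5.3p9 are named in the submitters' processing notes; the labels name no strand setting, genome build or annotation release for the counts. Lines that name no gene (reads of no feature were 42.9% to 43.8% of RIP, 9.07% to 13.6% of MeRIP and 9.49% to 10.5% of endothelial libraries) stayed out of library sizes and tests. Symbols came from the gene name table. Counts were tested with edgeR 4.0.16 (R 4.3.3, TMM scaling, filterByExpr, quasi-likelihood test, Benjamini-Hochberg over all genes tested, threshold 0.05), with DESeq2 1.42.0 as an alternative; the script was tested on simulated data. MeRIP was fitted over 8 libraries, the inputs over 4 and RIP over 4. edgeR's robust option was chosen after both fits were seen. Endothelial columns were summed per group, scaled by TMM, and given exact binomial 95% intervals, a minimum of 20 counts in a pool and a floor of 3 counts per pool; intervals and floors cover counting error only. RIP libraries were set against the mean log2 value of both control inputs for the values per library.

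Replicate numbers pair the MeRIP libraries, since the labels' protocols give each number its own read length, and deviations from group means correlated at 0.405 between inputs, 0.48 and 0.327 between input and IP and 0.382 between IPs. Between control input and RIP the value was −0.00208. The main fits carried no term for this pairing, which entered only in the replicate block. With the block the Hox calls in the IP were 25 higher and 1 lower (control) and 22 higher and 1 lower (mettl3 morphant).

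Each called Hox gene was named where at most 12 were called, otherwise the 6 highest and 6 lowest called; where none was called, the 3 highest and 3 lowest; for endothelial pools, the 6 with most counts and those past 2-fold; HOXB2 throughout. The members and lists were chosen with earlier results of these data known.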

Additional observations from a re-analysis of the deposited data

Results flagged for a closer look

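For 7 Hox genes the endothelial pool labelled mettl3 morphant and both replicate numbers of the trunk inputs pointed opposite ways against their controls. Of the Hox genes, 12 had an endothelial interval that left out 0 and 1 sign in both trunk numbers, so the 7 are 58.3% of them; by the same criteria 2163 of 4822 genes, or 44.9%, pointed opposite ways. The difference between endothelial cells and trunk was not tested, the endothelial groups count as 1 sample each, and METTL3 mRNA itself went against the label in the endothelial pool and in trunk replicate 2.

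In endothelial cells hoxc3a was lower by log2 −1.849 (interval −2.01 to −1.69), with trunk values of 0.316 and 0.0606. For hoxa2b the endothelial value was −0.9478 (−1.22 to −0.68) and the trunk values 0.62 and 0.0129. HOXB5 (ENSDARG00000013057) had −0.9004 (−1.23 to −0.57) against 0.147 and 0.174. HOXC11 had −0.7498 (−1.50 to −0.03) against 0.161 and 0.161, and HOXB3 had −0.6618 (−0.76 to −0.56) against 0.374 and 0.0233. HOXC6 had −0.5831 (−0.78 to −0.39) against 0.144 and 0.148. hoxb1b went the other way, at 0.125 (0.01 to 0.24) against −0.00199, close to 0, and −0.0639.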

How the results depend on the processing

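In the control libraries the count of Hox genes higher in the m6A IP was 17, 10 with scaling by total gene counts and 9 to 22 with 1 library left out; the replicate block added 1 lower gene. Under the mettl3 morphant label it was 16, 8 with total scaling and 6 to 16 with 1 library left out, and lower genes numbered 1 by DESeq2, 1 with the replicate block and 0 to 1 with 1 library left out. In RIP the 0 higher became 1 by DESeq2, 1 with no filter and 0 to 7 with 1 library left out, and the 2 lower became 4 by DESeq2, 4 with no filter, 0 with the replicate block, 34 with total scaling and 0 to 14 with 1 library left out; the estimate without the robust option, chosen after seeing the data, gave 3. RIP and input share a replicate number but no pairing. In the m6A IP the replicate block raised the higher Hox genes to 25 in the control libraries and 22 under the mettl3 morphant label. DESeq2 gave 23 and 18. Over all genes the block gave 4594 and 4469 higher, and DESeq2 3612 and 3494. The block changed no call of a Hox gene in the inputs or in the change of enrichment, where 0 were called. Past 2-fold in the ythdf2 morphant pool, 4 higher became 10 with total scaling, and 8 lower 5 to 8 with 1 column left out; in the mettl3 morphant pool 4 lower became 3 to 7. With total scaling 3484 of 13933 genes were higher in the ythdf2 morphant pool. Summed Hox levels with TMM scaling were 1105 CPM in control inputs and 1149 CPM under the mettl3 morphant label. HOXB2 turned to −0.00831 in the change of enrichment and to −0.85 in RIP with total scaling. With 1 library left out the inputs gave HOXC10 −0.0851 to 0.51, HOXC12 −0.12 to 0.0029 and HOXC13 −0.18 to 0.0663, the change of enrichment gave HOXB2 −0.38 to 0.38 and HOXB5 (ENSDARG00000054030) −0.0246 to 0.19, and RIP gave HOXB2 −0.47 to 1.65. The cause of these shifts was not tested. Levels per transcript length were not run, since no lengths were to hand. With n = 2 per group, depth of RIP (1 count of hoxd13a per library) and 1 pool per endothelial group limit what these values can show.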
